A study of Homo sapiens with 11 samples.

Results

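The 10 genes described here control how glucose enters a cell and how fast it is turned into pyruvate and lactate, and they were taken by symbol from a table of 27671 genes. They were the glucose carriers SLC2A1 and SLC2A3, the hexokinases HK1 and HK2, the phosphofructokinase PFKP, the bifunctional enzymes PFKFB3 and PFKFB4, the pyruvate kinase PKM, the lactate dehydrogenase subunit LDHA and the pyruvate dehydrogenase kinase PDK1. All 10 were in the table, and all 10 were among the 15591 genes that passed the filter on low counts. The rule takes them by symbol, and the list was drawn up with earlier results of these data known.

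Glucose crosses the plasma membrane through facilitative carriers and is trapped by hexokinases as glucose 6-phosphate. Phosphofructokinase then commits it to glycolysis, and the PFKFB enzymes make and break down fructose 2,6-bisphosphate, an activator of phosphofructokinase. Pyruvate kinase makes pyruvate, which lactate dehydrogenase reduces to lactate unless pyruvate dehydrogenase takes it into mitochondria, a step that PDK1 holds back by phosphorylation. In many human cells the transcription factors HIF1A and MYC induce these genes, and the arrestins TXNIP and ARRDC4 lower glucose uptake by drawing SLC2A1 off the cell surface.

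The cells were HEK293T per the cell line label (the growth protocol names HEK293), a line grown from human embryonic kidney into which SV40 large T antigen was introduced. They received A8, a compound that the title of the series ties to RIG-I, a sensor of viral RNA, and to the integrated stress response, and ISRIB, a small molecule that acts on the translation factor eIF2B and blunts that response. The groups were A8 with ISRIB (n = 3), 10 µM A8 without ISRIB (n = 3), ISRIB with the vehicle DMSO (n = 2, called ISRIB alone, libraries a and b) and DMSO without ISRIB (n = 3). All groups came from 1 cell line and 1 dose of A8, and no dose of ISRIB was found in the labels. The labels give 8 h of treatment in the sample titles and 4 h in the treatment protocol, and they call the replicates biological. Libraries of polyadenylated RNA held between 34072107 and 35318111 counts, with 17892 to 18017 genes detected. All 8 genes listed as typical of HEK293 cells were detected, with a summed level of 902.5 to 1006.5 CPM with A8 and ISRIB, 950.1 to 993.1 CPM with A8, 873.7 to 931.1 CPM with ISRIB alone and 896.7 to 956.3 CPM with DMSO. Of 10 markers of other cell types, 5 (PTPRC, CD3E, PECAM1, KRT5 and HBB) had 0 counts in every library, which allows up to 0.088 CPM in the shallowest one, and the summed level of all 10 stayed between 15.7 and 21.3 CPM, most of it from the collagen gene COL1A1.

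The members covered a 3850-fold span of levels in these cells. Levels are CPM, that is counts divided by the TMM-adjusted library size of edgeR, and between genes they are compared per kilobase of the longest principal transcript of GENCODE 29. LDHA averaged 663.2 ± 40.5 CPM per kb and PKM 659.0 ± 27.9 CPM per kb over all libraries (SD, n = 11). Their ranges overlapped, and their order turned round when the union of all annotated exons was used as the length. HK1 (41.2 ± 1.38 CPM per kb) and PFKP (38.9 ± 2.14 CPM per kb) followed, also with overlapping ranges. SLC2A1 (19.98 ± 1.26 CPM per kb), PFKFB3 (9.11 ± 0.517 CPM per kb) and HK2 (6.00 ± 0.558 CPM per kb) came next, each with a range apart from those of its neighbours. PDK1 (1.35 ± 0.0765 CPM per kb) and PFKFB4 (1.06 ± 0.115 CPM per kb) overlapped in range. The value of PDK1 rests on an annotated transcript of 14193 bases, and its level per kb would be higher if shorter forms were the ones made, which gene counts do not show. SLC2A3 was lowest, at 0.172 ± 0.0833 CPM per kb, with 9 to 46 counts per library.

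**Figure D1:**
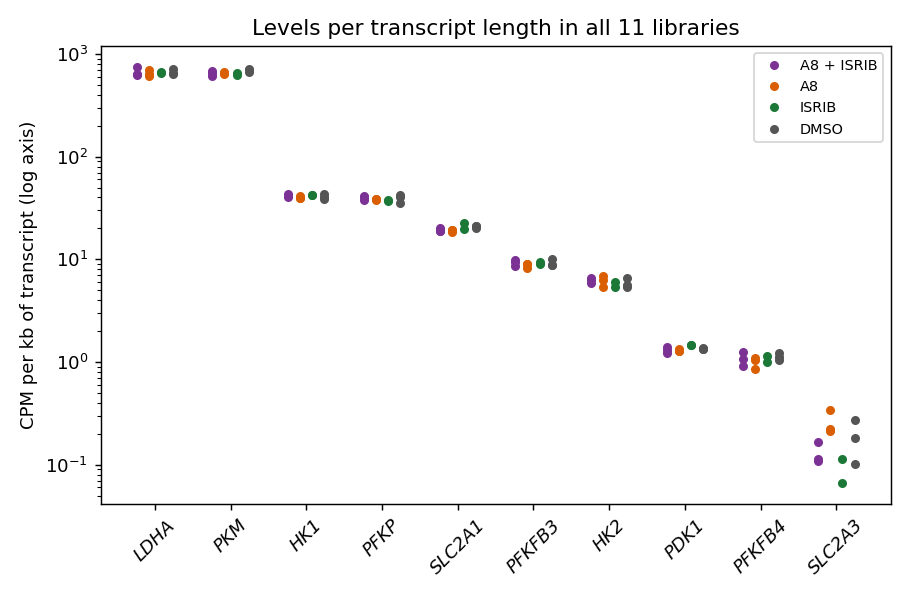
Level of each of the 10 genes in each of the 11 libraries, as CPM per kilobase of transcript on a log axis, with genes in order of their mean level and colours for the 4 treatment groups. LDHA and PKM lie at the top with overlapping points, and SLC2A3 lies lowest and is the most scattered.

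Shares of the members within their enzyme families are given per annotated length, as a description with no test. HK2, the inducible hexokinase of growing cells, made up 13.0 ± 0.810% of the HK1 and HK2 level per kb with A8 and ISRIB, 13.3 ± 1.46% with A8, 11.9 ± 0.863% with ISRIB alone (SD, n = 2) and 12.5 ± 1.67% with DMSO (SD, n = 3 in the others). PFKP, the platelet-type isoform, held 25.2 to 28.3% of the PFKP, PFKL and PFKM level over the 11 libraries. PFKFB3, the isoform with the strongest kinase activity relative to its phosphatase activity, held 79.5 to 84.4% of the level of PFKFB1 to PFKFB4, and PFKFB4 held 7.79 to 11.2%. PDK1 held 3.56 to 4.57% of the level of PDK1 to PDK4. This share rests on its annotated transcript of 14193 bases, and it would be higher if shorter forms were the ones made. Before division by length, PDK1 had 19.1 CPM with DMSO, beside 12.1 CPM for PDK3. The CPM of PDK2 and PDK4 is not given here, so this pair of values does not rank PDK1 within its family. LDHA shared its family with LDHB, which forms the heart-type subunit, and took 54.6 ± 0.407% of their sum with A8 and ISRIB, 53.3 ± 0.952% with A8, 54.0 ± 1.98% with ISRIB alone and 56.3 ± 2.39% with DMSO. By the union of exons its share was 49.8 to 50.6% with A8 and ISRIB, 47.95 to 49.9% with A8, 48.2 to 51.0% with ISRIB alone and 49.9 to 54.6% with DMSO, so which subunit was higher depends on the length used. SLC2A3 reached at most 1.74% of the summed level of SLC2A1 and SLC2A3 by principal transcript, and 1.89% by the union of exons. The other shares also moved with the length used. By the union of exons HK2 held 13.8 to 17.9%, PFKP 20.7 to 23.5% and PFKFB3 77.9 to 82.9%. PFKFB4 held 9.34 to 13.3% and PDK1 4.09 to 5.26% by that length.

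Promoter sequences show which members carry the E-box CACGTG, a site that MYC and the glucose-responsive factor MondoA (encoded by MLXIP) with its partner MLX can bind. RefSeq promoter windows of build GRCh38.p14, from 250 bases before to 50 after each annotated start, were at hand for 9 of the 10 members, 22 windows in all. The palindrome CACGTG was found in 3 of the 22 windows, 1 each of HK2, PFKFB3 and LDHA, against 7.26% of all 35116 windows. The shorter HIF core ACGTG, which is part of CACGTG, was found on either strand in 6 of 22 windows of 5 members, against 21.4% of all windows, and TGATGNAA, an ATF4-type element, in 2 overlapping windows of HK1, against 3.62% of all. The 250 bases before the start are given below for the 3 members with CACGTG and for ARRDC4, a gene of the pathway that was lower with A8, all 5′ to 3′ with CACGTG in capitals.
HK2 (chr2:74834920-74835169, plus strand): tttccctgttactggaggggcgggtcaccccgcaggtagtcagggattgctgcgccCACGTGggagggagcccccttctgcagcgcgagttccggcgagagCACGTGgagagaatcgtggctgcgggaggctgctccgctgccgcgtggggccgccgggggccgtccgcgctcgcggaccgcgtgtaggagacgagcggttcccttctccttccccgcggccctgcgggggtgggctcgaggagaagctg
PFKFB3 (chr10:6202682-6202931, plus strand): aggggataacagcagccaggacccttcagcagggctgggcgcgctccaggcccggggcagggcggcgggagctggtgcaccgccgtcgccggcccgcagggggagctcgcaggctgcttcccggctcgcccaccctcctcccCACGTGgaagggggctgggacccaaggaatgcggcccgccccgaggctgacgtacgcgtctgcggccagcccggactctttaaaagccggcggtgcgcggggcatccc
LDHA (chr11:18394313-18394562, plus strand): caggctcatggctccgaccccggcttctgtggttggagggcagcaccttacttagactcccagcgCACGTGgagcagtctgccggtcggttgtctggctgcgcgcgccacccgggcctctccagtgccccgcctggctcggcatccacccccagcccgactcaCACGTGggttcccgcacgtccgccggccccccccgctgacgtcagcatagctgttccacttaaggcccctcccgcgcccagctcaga
ARRDC4 (chr15:97960453-97960702, plus strand): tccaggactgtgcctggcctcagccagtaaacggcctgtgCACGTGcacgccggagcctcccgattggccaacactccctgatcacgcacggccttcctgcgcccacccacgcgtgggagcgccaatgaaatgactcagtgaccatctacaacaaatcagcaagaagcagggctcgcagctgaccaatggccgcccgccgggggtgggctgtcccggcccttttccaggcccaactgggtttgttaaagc
The first base of CACGTG lay at positions -194 and -149 relative to the annotated start in HK2, -108 in PFKFB3, -185 and -87 in LDHA and -210 in ARRDC4. Neither of the 2 windows of TXNIP held CACGTG. Only this exact palindrome was searched, so imperfect forms, such as the cacgag found in a window of TXNIP, were not counted. A match describes these letters only, and no binding was measured.

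With A8 alone no member passed the test against DMSO. By edgeR's quasi-likelihood test 0 of the 10 members were called at an adjusted p under 0.05, against 0.141% of all genes tested, 0 had an unadjusted p under 0.05, against 10.2% of all genes, and the DESeq2 Wald test also called 0. In bulk RNA, fewer cells making a transcript and less of it per cell cannot be told apart. The log2 fold changes of the members had a median of -0.04, beside 0.01 for all genes, with 8 of 10 below 0. Adjusted p-values ran from 0.538 to 0.940.

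SLC2A1, the carrier of basal glucose supply in many cell types, had 70.8, 67.3 and 71.3 CPM with A8, against 73.6, 76.6 and 78.2 CPM with DMSO. Each A8 library lay below each DMSO library, a pattern that 8.13% of all genes shared, while 8.47% lay above without overlap. The log2 fold change was -0.13 (SE 0.07, 95% interval -0.26 to 0.01, edgeR adjusted p = 0.538), or -8.31%. SLC2A3, a carrier with high affinity for glucose, had 1.34, 0.865 and 0.824 CPM with A8, against 0.713, 0.394 and 1.05 CPM with DMSO. These groups overlapped, and the log2 fold change of 0.49 had an interval of -0.29 to 1.27. With 1 library left out in turn it ran from 0.19 without DMSO replicate 2 to 0.86 without DMSO replicate 3. SLC2A3 has a near-identical copy, SLC2A14, with 0 to 4 counts per library, so that reads of these genes could have been divided between them in counting.

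The 5 enzymes of the upper part of the chain all overlapped between A8 and DMSO. HK1, the hexokinase of most tissues, had 145.4 ± 3.71 CPM with A8 and 147.4 ± 7.03 CPM with DMSO, and HK2 had 35.6 ± 4.62 and 33.5 ± 3.79 CPM in the same groups (SD, n = 3). PFKP had 102.2 ± 1.98 CPM with A8 and 104.0 ± 9.77 CPM with DMSO. PFKFB3 had 39.3 ± 1.79 CPM with A8 and 41.6 ± 3.08 CPM with DMSO. PFKFB4, a hypoxia-inducible member of its family, had 3.91, 3.07 and 3.71 CPM with A8, against 4.34, 3.97 and 3.76 CPM with DMSO. Among the 9 members other than SLC2A3 its log2 fold change was the farthest from 0, at -0.18 (interval -0.50 to 0.15).

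The 3 genes at the pyruvate branch point overlapped as well. PKM, whose gene counts do not separate the M1 and M2 forms of the enzyme, had 1772 ± 34.7 CPM with A8 and 1870 ± 67.1 CPM with DMSO, a log2 fold change of -0.08 (interval -0.20 to 0.05). LDHA had 1572 ± 105.1 CPM with A8 and 1612 ± 82.0 CPM with DMSO. PDK1 had 18.5 ± 0.376 CPM with A8 and 19.1 ± 0.441 CPM with DMSO. Their log2 fold changes ran from -0.08 to -0.04.

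**Figure D2:**
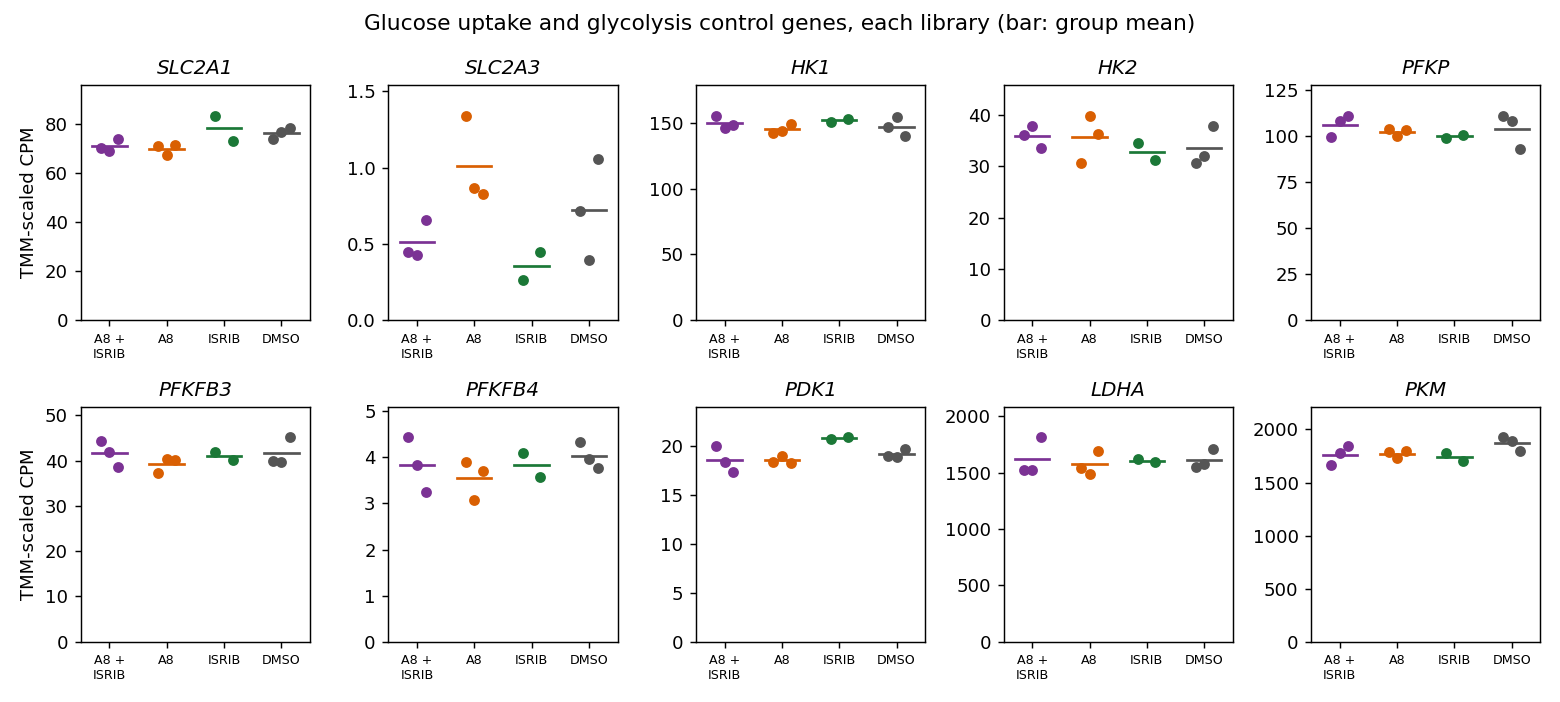
TMM-scaled CPM of each gene in each library on linear axes that start at 0, with 1 point per library and a bar at the group mean, for A8 with ISRIB, A8, ISRIB alone and DMSO from left to right. The groups sit at nearly the same height for 9 of the genes, and SLC2A3, at 0.260 to 1.34 CPM, is the exception.

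ISRIB alone against DMSO gave no call among the members and none among all genes. In edgeR 0 of 10 members were called, against 0% of all genes, and DESeq2 called 0, with no adjusted p for SLC2A3 and PFKFB4. SLC2A3 was the 1 member with an unadjusted p under 0.05, in both edgeR and DESeq2, against 9.58% of all genes in edgeR. It had 0.260 and 0.447 CPM with ISRIB alone, against 0.713, 0.394 and 1.05 CPM with DMSO, that is 9 and 16 counts against 25, 14 and 37. The second ISRIB library lay above the second DMSO library, so the groups overlapped. The log2 fold change was -1.01 (SE 0.47, interval -2.02 to -0.01, edgeR adjusted p = 0.516). It was -0.68 without ISRIB library a, -1.46 without ISRIB library b, -1.02 without DMSO replicate 1, -1.31 without DMSO replicate 2 and -0.64 without DMSO replicate 3, and the unadjusted p stayed under 0.05 in 2 of these 5 fits.

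Of the other members, PDK1 and PKM had groups that did not overlap after ISRIB alone. PDK1 had 20.7 and 20.8 CPM with ISRIB alone, against 18.9, 18.8 and 19.6 CPM with DMSO, a log2 fold change of 0.12 (SE 0.09, edgeR adjusted p = 0.682). PKM had 1781 and 1705 CPM with ISRIB alone, against 1926, 1890.0 and 1796 CPM with DMSO, a log2 fold change of -0.10 (SE 0.07, edgeR adjusted p = 0.646). With 2 libraries against 3, 13.9% of all genes were higher and 15.1% lower without overlap, so 1 of 10 in each direction is near the background. Across genes the log2 fold changes of this comparison were lower where transcripts were richer in G and C, with a Spearman rho of -0.488 over 12998 genes. PDK1 has a transcript of 39.8% GC and PKM one of 58.6%, and once the trend over genes was removed, an analysis added after seeing the data, their log2 fold changes were 0.02 and -0.01. For SLC2A1 in A8 against DMSO, where the rho was -0.303, the same step gave -0.10 in place of -0.13.

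With ISRIB added to A8 no member passed the test against A8, and SLC2A3 had the widest difference. In edgeR 0 of 10 members were called for A8 with ISRIB against A8, against 0.18% of all genes, and DESeq2 called 0. The median log2 fold change was 0.03, beside 0.00 for all genes, and the 9 members other than SLC2A3 had values from -0.01 to 0.11. SLC2A3 had 0.446, 0.425 and 0.658 CPM with A8 and ISRIB, against 1.34, 0.865 and 0.824 CPM with A8, that is 16, 15 and 21 counts against 46, 31 and 28. Each library with ISRIB lay below each without, as for 5.98% of all genes, beside 5.09% that lay above. The log2 fold change was -0.99 (SE 0.39, interval -1.81 to -0.17, edgeR adjusted p = 0.715), and the unadjusted p was under 0.05 in edgeR and DESeq2, as for 5.91% of all genes in edgeR. With 1 library left out in turn it ran from -1.21 to -0.73, and in 3 of these 6 fits the unadjusted p stayed under 0.05.

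SLC2A3 had its 2 widest differences in the comparisons that set ISRIB against no ISRIB, at the lowest counts of any member. Its highest value with ISRIB was 0.658 CPM, in an A8 library, and its lowest without ISRIB was 0.394 CPM, in a DMSO library. The spread between replicates at this depth was wide, with a coefficient of variation of 48.3% over the 11 libraries, beside 3.36% for HK1 and 10.8% for PFKFB4, the next most variable member.

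A8 with ISRIB against ISRIB alone asks what A8 did while ISRIB was present. In edgeR 0 of 10 members were called, against 0.0128% of all genes, 0 had an unadjusted p under 0.05, against 8.32% of all genes, and DESeq2 called 0. SLC2A1 had 69.9, 68.7 and 73.9 CPM with A8 and ISRIB, against 83.3 and 73.0 CPM with ISRIB alone. These groups overlapped, and the log2 fold change of -0.14 (SE 0.07, interval -0.30 to 0.01, edgeR adjusted p = 0.638) was -0.05 without ISRIB library a and -0.23 without ISRIB library b, so its size rests on which of these 2 libraries is used. PDK1 had 19.96, 18.4 and 17.3 CPM with A8 and ISRIB, against 20.7 and 20.8 CPM with ISRIB alone. It did not overlap, as for 12.3% of all genes that were lower, and its log2 fold change was -0.16 (SE 0.09, edgeR adjusted p = 0.658). Both differences of PDK1 without overlap involve the same 2 ISRIB libraries. Across genes the log2 fold changes of this comparison were higher where transcripts were richer in G and C (Spearman rho 0.337). With that trend removed, the log2 fold change of PDK1 was -0.10 and that of SLC2A1 was -0.17. The other members ranged from -0.02 for HK1 to 0.51 for SLC2A3, the value of SLC2A3 with an interval of -0.53 to 1.55.

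A8 with ISRIB against DMSO again had 0 of 10 members called in edgeR, against 0.0192% of all genes, with 0 at an unadjusted p under 0.05, against 7.7% of all genes, and 0 in DESeq2. All 10 members overlapped between these groups, while 5.79% of all genes were higher and 6.57% lower without overlap. SLC2A1 had the lowest value among the 9 members other than SLC2A3, at -0.10 (interval -0.24 to 0.03), and HK2 the highest, at 0.10 (interval -0.11 to 0.31). LDHA had 1519, 1526 and 1813 CPM with A8 and ISRIB, against 1551, 1580.0 and 1705 CPM with DMSO, and replicate 3 of A8 with ISRIB stood above the other two. Its log2 fold change was 0.01, and without that replicate -0.08.

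The interaction tested whether the effect of A8 differed with ISRIB present. In edgeR 0 of 10 members were called, against 0.0257% of all genes, 0 had an unadjusted p under 0.05, against 8.48% of all genes, and DESeq2 called 0. For SLC2A1 the effects of A8 were -0.14 with ISRIB and -0.13 without, a difference of -0.02 (interval -0.22 to 0.19). For SLC2A3 they were 0.51 and 0.49, a difference of 0.03 (interval -1.18 to 1.23). The other 8 members had differences from -0.11 for PDK1 to 0.18 for PFKFB4. Across genes these differences were higher where transcripts were richer in G and C (Spearman rho 0.468). With that trend removed, the 8 ran from -0.02 for HK1 to 0.13 for LDHA, with PDK1 at 0.00 and PFKFB4 at 0.10.

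The intervals show the size of change that each test left possible. Each holds for 1 gene in 1 comparison and is not adjusted for their number, so the limits below are not joint. For the 8 members other than SLC2A3 and PFKFB4, no 95% interval in the 5 comparisons between groups reached beyond 0.36 on the log2 scale in either direction, a 1.29-fold difference (HK2, A8 with ISRIB against ISRIB alone). With PFKFB4 the limit was 0.50, a 1.42-fold difference. For SLC2A3 changes of 2-fold and more lay inside the intervals of all 5 comparisons. In the authors' deposited tables the adjusted p-values of the members were at least 0.714 for A8, 0.876 for ISRIB alone and 0.999 for A8 with ISRIB, each against DMSO.

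**Figure D3:**
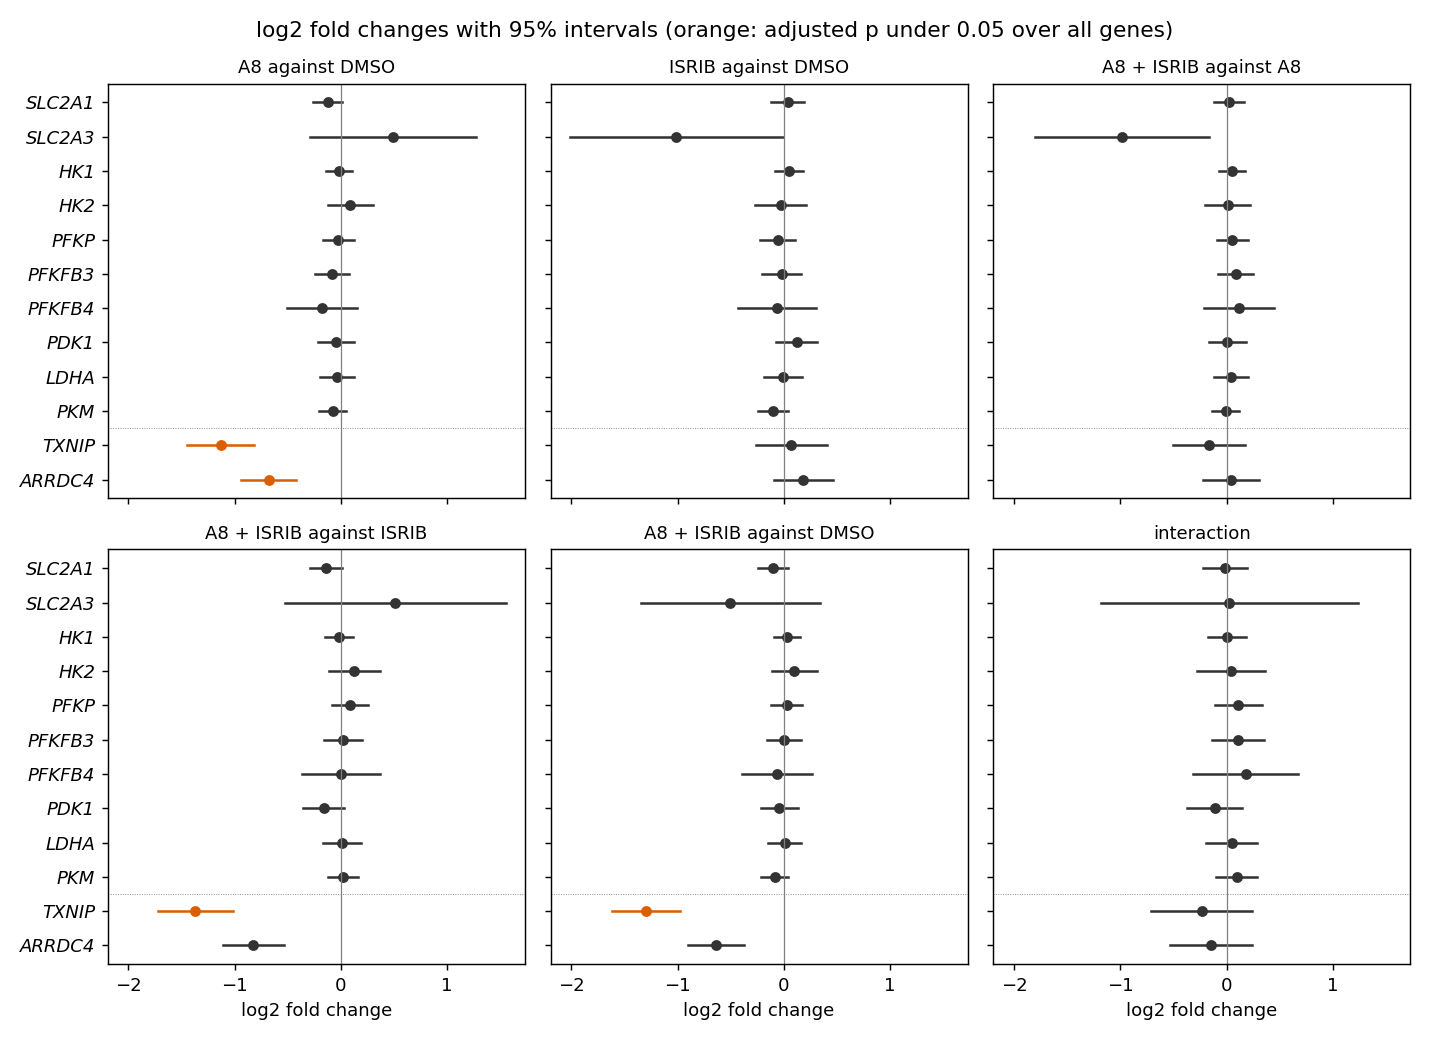
Fitted log2 fold change (point) and 95% interval (line) of the 10 genes and of TXNIP and ARRDC4, below the dotted line, in the 5 comparisons between groups and in the interaction, with orange for an adjusted p under 0.05 over all genes. The members lie at or near 0 with short intervals, apart from the long intervals of SLC2A3, while TXNIP lies at -1.13 in A8 against DMSO and at -1.37 in A8 with ISRIB against ISRIB alone.

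The wider pathway gave a like picture with 2 exceptions. Of 81 further genes in 7 lists, 71 passed the filter on low counts. In A8 against DMSO 2 of the 71 were called, both lower, beside 0.141% of all genes. The lists hold both genes by name and were drawn up with earlier results of these data known, so the higher share is no test of the pathway. The median log2 fold change of the 71 was -0.01, beside 0.01 for all genes. In A8 with ISRIB 1 of 71 was called against ISRIB alone, beside 0.0128% of all genes, and 1 against DMSO, beside 0.0192%, also lower. In the other 3 comparisons 0 of 71 were called in edgeR, beside 0 to 0.18% of all genes. There 2 to 6 of 71 had an unadjusted p under 0.05, beside 5.91 to 9.58% of all genes. In the 3 comparisons with calls, 11 of the 71 had an unadjusted p under 0.05 in A8 against DMSO, beside 10.2% of all genes. In A8 with ISRIB 5 of the 71 had one against ISRIB alone, beside 8.32% of all genes, and 5 against DMSO, beside 7.7%. In each of these 3 DESeq2 called TXNIP and ARRDC4, and it called 0 in the other 3. It gave no adjusted p for 4 to 13 of the 71 genes in 5 comparisons and for 22 in ISRIB alone against DMSO, TXNIP and ARRDC4 among these 22.

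The genes called were the arrestins TXNIP and ARRDC4, both in the list of 9 regulators. In edgeR 2 of these 9 had an unadjusted p under 0.05 in A8 against DMSO, beside 10.2% of all genes. With A8 and ISRIB 3 had one against ISRIB alone, beside 8.32%, and 4 against DMSO, beside 7.7%. MYC was among the 3, with a log2 fold change of 0.23 (interval 0.10 to 0.36, edgeR adjusted p = 0.323), while HIF1A was at -0.17 there. In A8 against DMSO MYC was at 0.09. TXNIP had 4.93, 4.13 and 3.91 CPM with A8, against 9.10, 10.4 and 8.97 CPM with DMSO, and 2.98, 3.83 and 4.79 CPM with A8 and ISRIB, against 9.39 and 10.5 CPM with ISRIB alone. Its log2 fold changes were -1.13 (edgeR adjusted p = 0.00145) and -1.37 (edgeR adjusted p = 0.00412). The first call held in each of the 6 fits with 1 library left out, and the second was lost without A8 with ISRIB replicate 2 (adjusted p = 0.0629) and without ISRIB library b (adjusted p = 0.302). ARRDC4 had 5.16, 5.80 and 5.36 CPM with A8, against 9.07, 7.60 and 9.48 CPM with DMSO, with a log2 fold change of -0.68 (in edgeR adjusted p = 0.0315). That call held without DMSO replicate 2 and was lost without A8 replicate 1 (adjusted p = 0.203), A8 replicate 2 (0.0995), A8 replicate 3 (0.147), DMSO replicate 1 (0.117) and DMSO replicate 3 (0.110), with log2 fold changes from -0.77 to -0.61 throughout. In the same libraries SLC2A1, the carrier that these arrestins restrain, had the values given above. HK2, PFKFB3 and LDHA had log2 fold changes of 0.09, -0.08 and -0.04 with A8 against DMSO. Each of them has a promoter window with CACGTG, as ARRDC4 does, and another without it. Gene counts do not show which start was used, and a link of the motif to these values was not tested.

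The other 6 lists had no called gene in any comparison in edgeR, nor in DESeq2 among the genes to which it gave an adjusted p. In edgeR 0 to 3 genes of a list had an unadjusted p under 0.05, beside 5.91 to 10.2% of all genes. The highest count in these 6 lists was 3 of the 9 other control enzymes tested, in A8 against DMSO, beside 10.2% of all genes. All 3 were higher, with log2 fold changes from 0.27 to 0.71. Of each list the genes with the smallest unadjusted p in A8 against DMSO and in A8 with ISRIB against ISRIB alone are given here, apart from 1 gene. Among other glycolytic enzymes (14 of 16 tested, median -0.04 with A8 against DMSO), the mutase PGAM1 had 56.7 ± 1.12 CPM with A8 and 65.5 ± 3.48 CPM with DMSO, a log2 fold change of -0.21 (edgeR adjusted p = 0.308). PFKL, the liver-type phosphofructokinase, had a log2 fold change of 0.09 with A8 and ISRIB against ISRIB alone. Among other carriers and hexokinases (8 of 14 tested, median -0.02), SLC2A6 had 12.8 ± 0.185 CPM with A8 and 16.2 ± 1.64 CPM with DMSO, a log2 fold change of -0.34 (edgeR adjusted p = 0.260). SLC2A6 was at 0.15 with A8 and ISRIB against ISRIB alone. SLC2A12 had a log2 fold change of -0.27 with A8 and ISRIB against ISRIB alone, and of 0.47 with A8 against DMSO. The sign of both thus turned with ISRIB, with interactions of 0.49 for SLC2A6 (edgeR adjusted p = 0.452) and -0.73 for SLC2A12 (edgeR adjusted p = 0.504). SLC2A2, SLC5A1 and HKDC1 had 0 counts in every library, and the hexokinase HK3 had at most 1 count.

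Among other control enzymes (9 of 10 tested, median 0.10 with A8 against DMSO), the pyruvate dehydrogenase kinase PDK3 had 14.5 ± 0.921 CPM with A8 and 12.1 ± 0.430 CPM with DMSO, a log2 fold change of 0.27 (edgeR adjusted p = 0.386). The gluconeogenic phosphatase FBP1 had a log2 fold change of 1.69 with A8 and ISRIB against ISRIB alone, at 3 to 22 counts per library (edgeR adjusted p = 0.545). Pyruvate and lactate genes (12 of 12 tested, median 0.00) were led by LDHB, with 875.6 ± 44.5 CPM with A8 and 797.0 ± 38.01 CPM with DMSO (log2 fold change 0.14, edgeR adjusted p = 0.544), and by DLD, a subunit of pyruvate dehydrogenase, at -0.12 with A8 and ISRIB against ISRIB alone.

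In the pentose phosphate pathway, which branches off from glycolysis (7 of 7 tested, median -0.03 with A8 against DMSO), PGLS had 94.0 ± 5.10 CPM with A8 and ISRIB and 78.8 ± 0.269 CPM with ISRIB alone (SD, n = 3 and 2), a log2 fold change of 0.26 (edgeR adjusted p = 0.365). HIF targets outside glycolysis (12 of 13 tested, median -0.01) were led by the mitophagy receptor BNIP3, at -0.19 with A8 against DMSO, and by the histone demethylase KDM3A, at -0.14 with A8 and ISRIB against ISRIB alone. CA9, a carbonic anhydrase often used as a marker of hypoxia, had 0 counts in every library.

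**Figure D4:**
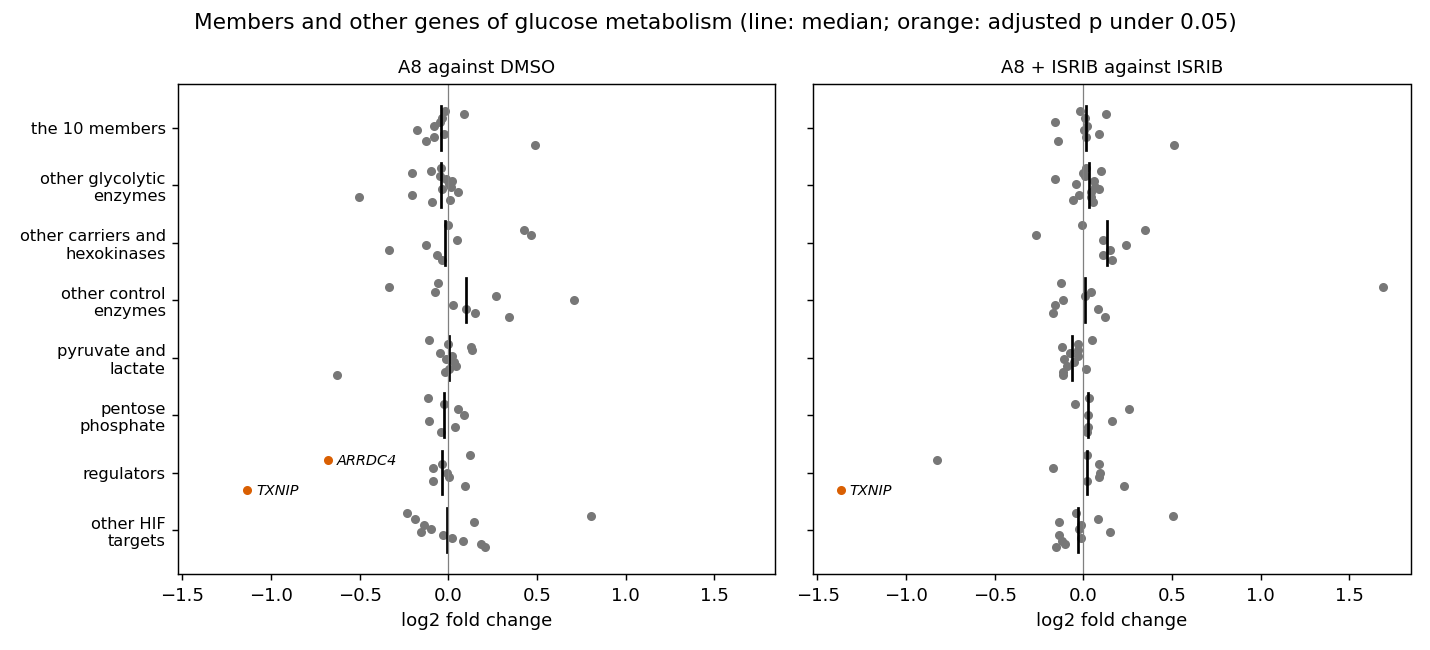
Log2 fold change of each tested gene of the 10 members and of 7 lists of related genes, with a vertical line at each list's median, for A8 against DMSO (left) and A8 with ISRIB against ISRIB alone (right). The medians lie near 0, and the genes in orange, TXNIP and ARRDC4 on the left and TXNIP on the right, have an adjusted p under 0.05 over all genes.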

How the data were processed

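RNA of HEK293T cells was enriched by poly(A) tails and made into strand-specific libraries for a DNBSEQ instrument, per the labels' protocols. The authors deposited raw counts by gene symbol for 11 libraries. Per the submitters' processing notes, build GRCh37 was used, with DESeq and DESeq2. Which aligner and counter were run, and with which strand setting, is not given in the sources used here. In 3 further tables the authors deposited DESeq2 results: base means, which are a signal of mean normalized counts, log2 fold changes, Wald statistics (a score) and p-values, per the file headers. Replicate 2 of ISRIB alone was excluded for quality, per the labels. The 2 ISRIB columns carry other numbers than the sample titles, so they were given to the group only.

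Counts were tested with edgeR 4.0.16 in R 4.3.3: filterByExpr by group (15591 genes kept, while 6426 of 27671 had 0 counts throughout), TMM, 1 quasi-likelihood fit of group means over all 11 libraries, and Benjamini-Hochberg adjustment over all genes tested. Calls were made at an adjusted p under 0.05. Standard errors (SE) and 95% intervals came from the F statistic. Replicates differed by more than sampling noise (chi-square per degree of freedom 7.55 to 38.3), so none was counted as a copy. A count of 0 allows up to 3 counts, 0.0849 to 0.088 CPM, for counting error only. The calling was checked on simulated counts.

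Transcript lengths and GC content came from GENCODE 29, of another build, so no coordinates of the count table are given. Promoters came from RefSeq (GRCh38.p14). The members and lists were chosen with earlier results of these data known. In each further list the called genes are named, and otherwise the gene with the smallest unadjusted p in A8 against DMSO and that in A8 with ISRIB against ISRIB alone; 1 gene so named is not reported here. Genes like a called member were to be named as well, and no member was called. Alternatives were DESeq2 1.42.0 (size factors, Wald test), no filter or at least 50 counts, only the groups compared, a robust fit, a replicate block and each library left out. Removing the trend with GC content (lowess over 12998 genes) was added after seeing the data.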

Additional observations from a re-analysis of the deposited data

How the results depend on the processing

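The count of members called was 0 in every comparison under every setting run: DESeq2 size factors, the DESeq2 Wald test, no filter on low counts, at least 50 counts, only the groups compared, a robust quasi-likelihood fit, the replicate block and each library left out in turn (0 to 0). DESeq2 gave no adjusted p for 5 values, all of SLC2A3 or PFKFB4, and these count as neither called nor lost. The deviations of 3 of 9 same-numbered pairs of libraries correlated above 0.1 (r from -0.503 to 0.422), beside 6 of 18 pairs with different numbers. Deviations were taken from each group's own mean, which ties these correlations together, so they cannot show whether equal numbers mark a shared day or batch. The replicate block, possible for 3 comparisons without ISRIB alone, also gave 0 called members, and under it the call of ARRDC4 in A8 against DMSO was lost (adjusted p = 0.147). That call was also lost with only the groups compared (adjusted p = 0.0557), while DESeq2 run on the counts made it (adjusted p = 0.000642). In the authors' deposited tables ARRDC4 was not called, with adjusted p-values of 0.164 in A8 against DMSO and 0.415 in A8 with ISRIB against DMSO. DESeq2 and edgeR without a filter, both run on the counts, called ARRDC4 in A8 with ISRIB against ISRIB alone and against DMSO too. The call of TXNIP in A8 with ISRIB against DMSO was lost without A8 with ISRIB replicate 2 (adjusted p = 0.0550).

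Over the 380 log2 fold changes of members under settings that kept all libraries of the groups compared, 0 changed sign and the largest shift was 0.0423. The robust fit, 1 of these settings, keeps the log2 fold changes of the main fit, so no sign could change under it. Over the 390 log2 fold changes with 1 library left out, 63 changed sign, each within 0.114 of 0 apart from SLC2A3. Of these 390, 10 moved by more than 1 SE, with edgeR adjusted p of at least 0.416. The limit for the 8 members other than SLC2A3 and PFKFB4 ran from 0.321 to 0.513, that is 1.25- to 1.43-fold, when 1 library was left out. Removing the GC trend shifted 3 of 60 values by more than 1 SE, at most by 0.115, and turned the sign of 11. Counting depth was lowest for SLC2A3, with 9 to 46 counts per library.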
